A study of Mus musculus with 20 samples.

Results

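The spleen pair set 1 library from a mouse given DHEA (dehydroepiandrosterone, an adrenal steroid and androgen precursor) against 1 library from a control mouse given oil. All symbols that occur once in the deposited FPKM table entered (24769 of 24826 rows), and the 7882 genes whose mean over both libraries was at least 5 FPKM (fragments per kilobase of transcript, scaled to a common sequencing depth) were counted. The ratio used throughout was the log2 of DHEA FPKM + 1 over control FPKM + 1, and a gene was called higher or lower at 2-fold or more on that scale. The wider study holds bulk RNA-seq of 10 tissues from control and DHEA mice, 20 libraries in all, of which these are 2. The labels give both spleens the genotype WT, spell the control treatment "sasame oil" and also carry the words 10x Genomics, although the series is described as bulk. The strain, sex, age, dose, duration, number of animals behind a library and sharing of animals between tissues were not given in the sources used here.

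The spleen filters blood. Its red pulp holds macrophages that engulf old red cells, break down their haem and return the iron, and in mice it also keeps erythroid and myeloid precursors, which can expand when the demand for red cells rises. Stress erythropoiesis of this kind is known to draw on erythropoietin, Kit ligand, BMP4 and glucocorticoid signals. The white pulp is the lymphoid part, where B cell follicles form around stromal cells that make the chemokine CXCL13 and T cells gather in zones around the arterioles.

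With 1 library a group there is no test between conditions and no p-value, and no difference has a replicate check. Folds come with an exact 95% Clopper-Pearson interval made from reads recovered from the FPKM steps, and that interval covers counting error only, not variation between animals. The control library held 16795452 reads in genes and the DHEA library 16388833, within the range of 13206872 to 20702129 over the 20 libraries. A gene of 2 kb at 5 FPKM stood on 170 reads in the control and 166 in the DHEA library. In whole-tissue RNA, more cells of a type and more RNA per cell cannot be told apart.

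Of the 7882 genes, 452 were called higher in the DHEA spleen, which is 5.73% (percent of genes called higher), and 74 were called lower, which is 0.939%. The remaining 7356 lay between, and the median log2 ratio was -0.03. At 4-fold or more, 96 genes were higher and 7 lower. The filter itself favours genes that are high in 1 library: 635 of the 7882 passed only through their higher library and so had to differ. Over the 7670 genes with a control of 5 FPKM or more, 288 were higher and 94 lower. When the libraries were scaled to their B cell and T cell genes in place of total reads, which moves every ratio up by 0.38, the split was 809 higher and 30 lower. Just inside the threshold, Pla2g7 was at 23.0 FPKM in control against 47.1 in DHEA, and just outside it Cd93 was at 10.7 and 22.3. On the lower side, A530040E14Rik (28.1 against 13.5) was just inside and Uchl3 (9.65 against 4.33) just outside. Of the 526 called genes, 6 had fewer than 10 reads in their higher library, among them the immunoglobulin D segments Ighd2-4, Ighd2-5 and Ighd5-3, whose bases number 5 to 17 and whose FPKM of 10.6 to 13.8 came from 1 to 4 reads.

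**Figure D1:**
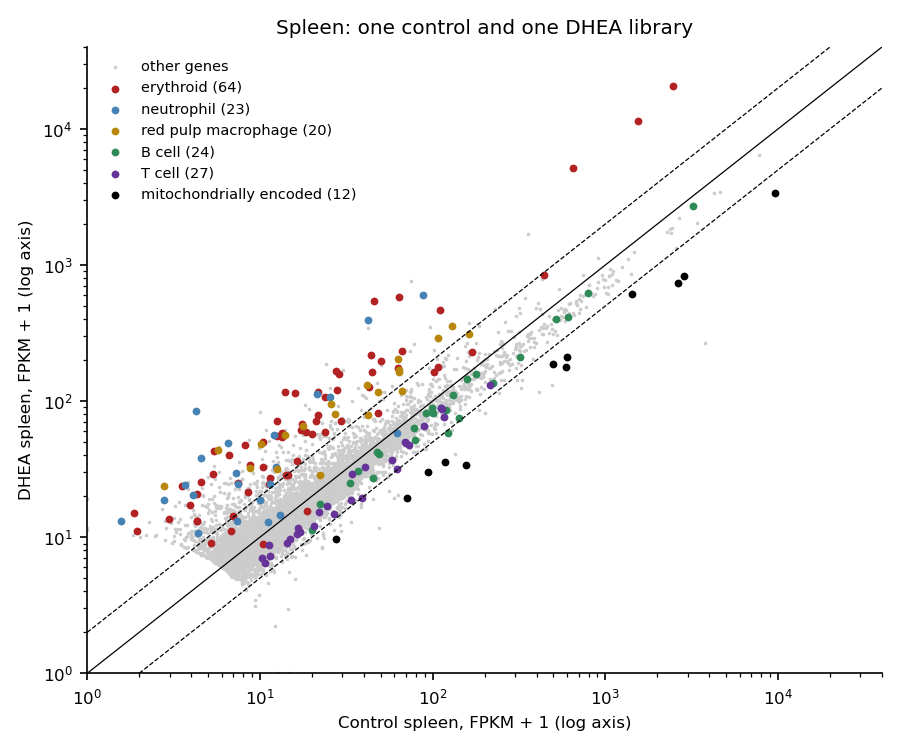
Control FPKM + 1 (x axis, log) against DHEA FPKM + 1 (y axis, log) for the 7882 genes, with 6 groups of genes in colour; the solid line marks equal levels and the dashed lines 2-fold. Erythroid, neutrophil and red pulp macrophage genes sit mostly above the upper dashed line, B cell and T cell genes just under the solid line, and the 12 mitochondrially encoded genes below the lower dashed line.

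The 5 marker genes of the tissue separated into those that were higher and 1 that was close to level. Alas2, the erythroid enzyme that starts haem synthesis, was at 44.7 FPKM in control against 539 in DHEA. Slc4a1, the anion exchanger of the red cell membrane, was at 63.3 and 578. S100a8, a calcium-binding protein abundant in neutrophils, was at 41.5 and 392, and Retnlg, a secreted resistin-like protein of mature neutrophils, was at 3.27 and 83.1. Cd79a, a signalling chain of the B cell receptor, was at 793 and 626. B cell, T cell and macrophage genes were present in both libraries, with 24 of 24 measured B cell genes and 27 of 27 T cell genes above the filter.

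Most haem synthesis genes were higher, from the first step of the pathway to the last. Enzymes past 2-fold were Alas2 at 12.1-fold (95% interval 11.5 to 12.7), Alad at 2.57-fold, Uros at 2.75-fold, Urod at 3.49-fold, Cpox at 4.06-fold, Ppox at 2.49-fold and Fech, which inserts the iron, at 6.45-fold (6.13 to 6.80). Urod was at 20.1 FPKM in control against 70.2 in DHEA, and Fech at 7.20 and 46.4. The mitochondrial carriers that serve the pathway were higher as well: Slc25a37 (mitoferrin), the iron importer, was at 49.6 and 195, Slc25a38, the glycine carrier, at 10.3 and 23.8, and Abcb10 at 12.5 and 53.6. Of 13 haem synthesis genes above the filter, 11 were called higher and none lower, with a median log2 ratio of 1.75. Of the 2 that did not pass, Tmem14c was at 101 and 161 and the other lay below level, at a log2 ratio of -0.23.

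The promoter of Alas2 is shown because this gene had the highest ratio of the pathway and because erythroid genes of several classes were higher together. The window is RefSeq's, in build GRCm38.p6, at chrX:150547167-150547466 on the plus strand, from 250 bases before to 50 after the annotated start. Capitals mark the letters AGATAA or TGATAA (the core read by GATA factors) and CCNCNCCC (a KLF-type box), on either strand.
Alas2: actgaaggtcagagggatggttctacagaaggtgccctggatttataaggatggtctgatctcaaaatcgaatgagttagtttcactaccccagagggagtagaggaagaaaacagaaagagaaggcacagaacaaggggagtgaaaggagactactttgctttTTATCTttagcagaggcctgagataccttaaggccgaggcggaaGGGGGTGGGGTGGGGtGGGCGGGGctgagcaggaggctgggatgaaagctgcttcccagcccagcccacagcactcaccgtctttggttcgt
The window holds 1 AGATAA, read on the minus strand, and 4 CCNCNCCC matches that begin at -42, -40, -35 and -26 from the start, the first of which overlap. Among all 32851 promoter windows of this length, 11.2% hold AGATAA, 9.05% hold TGATAA and 49.5% hold CCNCNCCC. Among the 49 windows of genes in the haem synthesis, membrane and late erythroid lists, 26.5% hold AGATAA or TGATAA, against 10.2% of the 7771 windows of genes above the filter and 18.6% of all windows. The share was not highest there: it was 30.8% of the 39 windows of the secondary granule and mature neutrophil lists, and 4.76% of the 21 windows of the B cell list. CCNCNCCC stood in 73.5% of the 49 windows, beside 68.6% of the 7771 windows of genes above the filter. A match is a run of letters and shows no binding. The window table has GRCm38.p6 coordinates while the submitters' processing notes name mm39, so the coordinates are the table's own.

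Globin transcripts formed the most abundant part of the difference. Hbb-b1, an adult beta globin, was at 2459 FPKM in control against 20641 in DHEA, an 8.39-fold difference (8.30 to 8.49). Hba-a1, an alpha globin, was at 1546 and 11461, and Hbb-bt, the other adult beta globin, at 646 and 5177. The globin list took 0.371% of reads in the control and 2.90% in the DHEA spleen. Hba-a2, nearly identical to Hba-a1, was at 168 and 230, and since the counting of reads shared by such copies was not given in the sources used here, the level of each single copy is uncertain.

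Genes of the red cell membrane and its skeleton followed. Slc4a1 was 9.13-fold higher (8.88 to 9.40). Sptb, the beta chain of spectrin, was at 4.42 FPKM in control against 42.3 in DHEA, and Ank1, the ankyrin that ties spectrin to the membrane, at 2.55 and 22.7. The skeletal proteins Epb42 (5.64 and 39.1), Dmtn (3.35 and 19.7) and Tmod1 (0.953 and 10.1) behaved alike. Blood group carriers were higher too: Rhd was at 15.1 and 114, Rhag at 11.6 and 54.4, Kel at 9.41 and 49.4 and Ermap at 11.6 and 71.0. In all, 16 of 19 membrane genes above the filter were called higher and none lower, at a median of 2.25. Of these 19, 7 passed the filter only through the DHEA library; among the 12 with a control of 5 FPKM or more, 10 were higher and the median was 2.21. Xk (4.22 and 8.10), Bsg (107 and 177) and the glucose transporter Slc2a1 (17.8 and 14.5) did not pass.

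Of 27 late erythroid genes above the filter, 23 were called higher and none lower, with a median of 1.67. Of these 27, 4 passed the filter only through the DHEA library. With a control of 5 FPKM or more it was 19 of 23, also at a median of 1.67. Bpgm, the enzyme that makes 2,3-bisphosphoglycerate in red cells, was at 26.4 FPKM in control against 165 in DHEA. The carbonic anhydrases Car1 and Car2 went from 27.1 to 120 and from 109 to 465. Trim10 was at 13 and 117. The ubiquitin pathway genes Trim58 (0.858 and 14) and Ube2o (12.4 and 57.7), which act as red cells lose their nucleus and unneeded proteins, and the nuclear transport gene Xpo7 (6.44 and 24.2) were also higher. Hemgn, an erythroid nuclear factor, was at 27.9 and 158. Bnip3l, which removes mitochondria from reticulocytes, was at 47.4 and 80.9, under 2-fold, as was Gpx1 at 443 and 845. In the erythroid iron uptake list, none of 7 genes above the filter was called, with 6 above 0 and 1 below (median 0.47).

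The transcription factors of the lineage divided into 2 sets. Klf1 was at 10.3 FPKM in control against 50.3 in DHEA, Tal1 at 8.90 and 44.5, Gata1 at 9.40 and 26.7, Nfe2 at 9.25 and 36.8, Gfi1b at 5.46 and 18.4, and Zfpm1, the partner of GATA1, at 14.3 and 36.6. The other 6 of the 12 lay within 2-fold: Lmo2 (72.8 and 99.0), Lyl1 (39.8 and 38.2), Ldb1 (46.1 and 43.8), Ikzf1 (120 and 109), Cbfa2t3 (12.1 and 10.3) and Bcl11a (12.1 and 8.76). The median over the 12 was 0.87, and -0.07 over the 6 that have a value in the authors' deposited table of log2 folds.

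Of 10 early erythroid and megakaryocyte-erythroid progenitor genes above the filter, 5 were called higher and none lower (median 1.16; 4 of 9, median 0.92, with a control of 5 FPKM or more). They were Car1, Epor and Gfi1b, which stand in other erythroid lists too, Mfsd2b (6.50 FPKM in control against 18.7 in DHEA) and Samd14 (7.74 and 23.5). Over all 15 genes of that list the median was 0.37. Most signals of stress haematopoiesis lay within 2-fold. Epor, the erythropoietin receptor, was at 4.79 FPKM in control against 22.2 in DHEA, 4.64-fold (3.91 to 5.54), and Bcl2l1, which keeps erythroblasts alive, was at 8.65 and 24.8. These were the 2 of 15 stress erythropoiesis genes called higher, and none was lower (median 0.07). Kit, the receptor of early progenitors, was at 5.73 and 9.05, Tfrc, the transferrin receptor that brings in iron, at 25.7 and 52.0, and Myb at 5.59 and 5.26. Bmp4 was at 3.03 and 5.01 and Kitl at 4.68 and 4.34, both under the filter. Erfe, the hormone erythroblasts send to the liver to release iron, had 2 reads in control and 57 in DHEA. Gata2 was at 1.18 and 1.81 and Cd34 at 3.22 and 3.99, also under the filter. Of 4 stem and multipotent progenitor genes above the filter none passed 2-fold, nor did any of 12 megakaryocyte and platelet genes, where Pf4 was at 84.5 and 76.3 and Itga2b at 11.4 and 13.3.

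Cell cycle genes above the filter were all on the higher side of level, by smaller ratios. Of 26 mitosis genes, 13 passed 2-fold and 26 were above 0 (median 1.0): Ccnb1 was at 7.68 FPKM in control against 22.1 in DHEA, Ube2c at 20.3 and 56.1 and Mki67 at 7.62 and 16.3. Of 25 replication genes, 5 passed and 25 were above 0 (median 0.72), with Rrm2 at 39.1 and 108, Cdc6 at 4.54 and 15.7 and E2f2 at 31.5 and 73.0. Pcna, the replication clamp, was at 81.7 and 101, well under 2-fold. In each of these 2 lists, 3 genes passed the filter only through the DHEA library and so had to lie above 0. With a control of 5 FPKM or more, 12 of 23 mitosis genes (median 1.01) and 3 of 22 replication genes (median 0.55) were called higher.

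**Figure D2:**
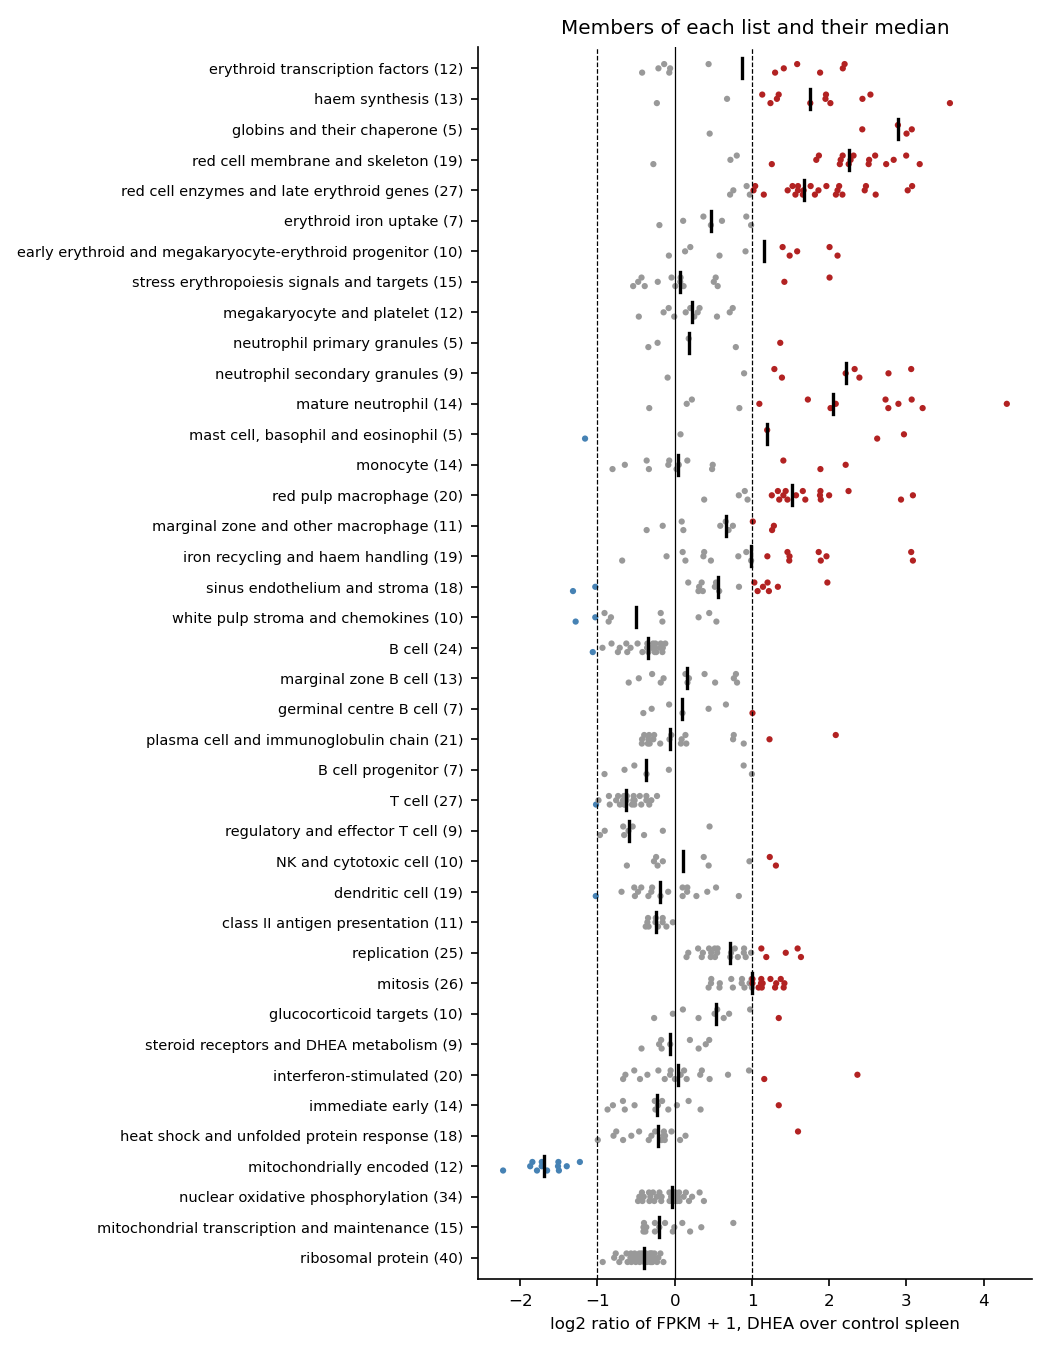
The log2 ratio (x axis, DHEA over control) of each list member above the filter (points; red at 2-fold or more higher, blue at 2-fold or more lower) with the list's median (black bar); the number of members stands in brackets. The haem, globin, membrane, late erythroid, mature neutrophil, neutrophil secondary granule and red pulp macrophage lists have medians over 1, while the 24 B cell and 27 T cell genes all lie under 0.

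Neutrophil genes made the second group. Retnlg had the largest log2 ratio of FPKM + 1 of all 7882 genes, 4.30. Without the added 1 it was 25.4-fold higher (17.9 to 37.1). On that measure the pancreatic genes Ctrb1 and Try4, with 0 reads in control, were at least 89.6-fold and 46.8-fold higher. S100a8 was 9.45-fold higher (8.60 to 10.4), and S100a9, its binding partner, was at 87.3 FPKM in control against 599 in DHEA. Csf3r, the G-CSF receptor, was at 5.57 and 47.9, Mmp9 (gelatinase B) at 2.67 and 23.4, Cxcr2 at 10.5 and 23.6 and Il1b at 6.47 and 23.7. Stfa2l1, a stefin, stood on 4 reads in control and 84 in DHEA. Of 14 mature neutrophil genes above the filter, 10 were higher and none lower (median 2.05); with a control of 5 FPKM or more it was 7 of 11 (median 1.72).

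Proteins of the secondary and tertiary granules, made at the myelocyte and metamyelocyte stages, were higher in 7 of 9 cases (median 2.21; 3 of 5, median 1.39, with a control of 5 FPKM or more). Ngp was at 20.4 FPKM in control against 111 in DHEA, Ltf (lactoferrin) at 3.08 and 19.5, Lcn2 at 1.77 and 17.9, Camp at 11.5 and 31.7 and Hp (haptoglobin) at 3.55 and 37.0. Ly6g, which marks mouse neutrophils, stood on 3 reads in control and 39 in DHEA. Among genes of the primary granules and the promyelocyte stage, Elane (3.41 and 10.4) was the 1 of 5 above the filter that passed 2-fold. The other 4 were Ctsc (55.1 and 62.6), Serpinb1a (73.8 and 58.0), Igsf6 (13.8 and 24.5) and Nkg7 (47.8 and 40.8), which cytotoxic cells share, and the median was 0.18. It was -0.02 over the 4 with a control of 5 FPKM or more and -0.03 with the authors' deposited log2 fold values for the same number. Mpo (1.63 and 6.95), Prtn3 (1.19 and 5.08) and Ctsg (0.683 and 3.50) were under the filter, and over the 12 list genes with a pair mean of 1 FPKM or more the median was 0.94.

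The promoters of S100a8 and Retnlg, the neutrophil genes with the largest ratios among the markers, are shown in the same RefSeq table and build, at chr3:90668821-90669120 and chr16:48872358-48872657, both on the plus strand. Capitals mark TTNNGNAA (a C/EBP-type site) and GAGGAA (a PU.1-type site) on either strand.
S100a8: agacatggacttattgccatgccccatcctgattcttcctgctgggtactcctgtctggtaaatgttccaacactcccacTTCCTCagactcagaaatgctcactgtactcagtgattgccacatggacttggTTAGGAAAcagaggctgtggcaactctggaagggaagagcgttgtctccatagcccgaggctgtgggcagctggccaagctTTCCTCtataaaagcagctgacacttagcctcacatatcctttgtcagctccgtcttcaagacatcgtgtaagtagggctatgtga
Retnlg: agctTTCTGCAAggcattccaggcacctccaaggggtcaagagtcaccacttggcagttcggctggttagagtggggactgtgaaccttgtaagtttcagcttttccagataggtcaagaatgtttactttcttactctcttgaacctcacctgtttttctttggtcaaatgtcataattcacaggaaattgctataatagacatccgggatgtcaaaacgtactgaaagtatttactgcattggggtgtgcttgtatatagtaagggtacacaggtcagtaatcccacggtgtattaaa
The S100a8 window holds 1 TTNNGNAA and 2 GAGGAA, and the Retnlg window 1 TTNNGNAA and no GAGGAA. Of all 32851 windows, 40.7% hold TTNNGNAA and 28.3% hold GAGGAA. Of the 39 windows of the secondary granule and mature neutrophil lists, 64.1% hold TTNNGNAA and 69.2% hold GAGGAA, beside 31.4% and 28.1% of the windows of genes above the filter. These shares are descriptions of letters. The lists' members were chosen by cell type and not by these windows.

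Other myeloid cells gave a mixed picture. Prg2, the major basic protein of eosinophil granules, was at 4.84 FPKM in control against 44.7 in DHEA, and Ccr3, the eotaxin receptor, at 4.46 and 32.6. Epx, the eosinophil peroxidase, had 2 reads in control and 140 in DHEA. Prg3, which codes for a related granule protein, went the other way, at 22.1 and 9.34, and Il5ra, under the filter, was at 5.67 and 3.46. Monocyte genes were near level, with a median of 0.04 over 14: Ly6c2 was at 28.6 and 29.7 and Cx3cr1 at 20.3 and 19.2. Ccr2, a monocyte gene under the filter, was at 4.01 and 4.48. The 3 monocyte-list genes that passed, Chil3, Treml4 and Csf1r, also stand in the neutrophil or red pulp macrophage lists.

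Red pulp macrophages were the third group. Cd163, the receptor for haemoglobin bound to haptoglobin, was at 1.80 FPKM in control against 22.7 in DHEA, 12.6-fold (10.8 to 14.9). Adgre1, which codes for the F4/80 antigen, was at 13 and 55.1, Itgad at 4.76 and 42.9, Mrc1 at 7.73 and 31.1, Vcam1 at 47.5 and 115 and Axl at 40.5 and 130. The complement genes C1qb (107 and 290) and C1qc (63.0 and 162) passed 2-fold, and C1qa (162 and 313) did not. Of 20 red pulp macrophage genes above the filter, 16 were higher and none lower (median 1.51; 14 of 18, median 1.45, with a control of 5 FPKM or more). Spic, the transcription factor that red pulp macrophages require, was at 21.2 and 27.9, under 2-fold.

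The genes of haem breakdown and iron return were higher with them. Hmox1, the haem oxygenase, was at 128 FPKM in control against 354 in DHEA, Blvrb, a biliverdin reductase, at 24.7 and 71.1, Slc48a1, which moves haem out of the phagosome, at 30.3 and 70.9, and Slc40a1, ferroportin, the iron exporter, at 24.8 and 94.8. Trf (transferrin) was at 49.6 and 183. Ferritin chains differed less, with Fth1 at 321 and 444 and Ftl1 at 405 and 524. Of 19 iron recycling genes, 9 were higher and none lower (median 0.99; 7 of 17, median 0.93, with a control of 5 FPKM or more). The haem exporter Flvcr1 (8.10 and 7.45) and ceruloplasmin, Cp (9.36 and 5.46), were below level.

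Marginal zone macrophage genes had smaller ratios than those of the red pulp, with 2 of the best known near level. Marco was at 160 FPKM in control against 170 in DHEA and Timd4 at 59.6 and 64.5. Siglec1, of marginal metallophilic macrophages, was at 9.47 and 24.5 and Cd209b (SIGN-R1) at 19.1 and 47.2, and with Cd68 these were the 3 of 11 called higher (median 0.66). Among stromal and endothelial genes, Stab2, a scavenger receptor of sinus lining cells, was at 6.84 and 29.8. The other calls spanned mesenchyme, pericytes and vessels. Tcf21 (11.2 and 29.9) and Tlx1 (9.56 and 23.6), factors of splenic mesenchyme, Pdgfrb (9.64 and 23.5), Kdr (6.03 and 13.8) and Plvap (47.8 and 98.7) also passed 2-fold. Dcn (decorin), at 17.4 and 6.40, and Madcam1, at 18.4 and 8.52, were lower.

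**Figure D3:**
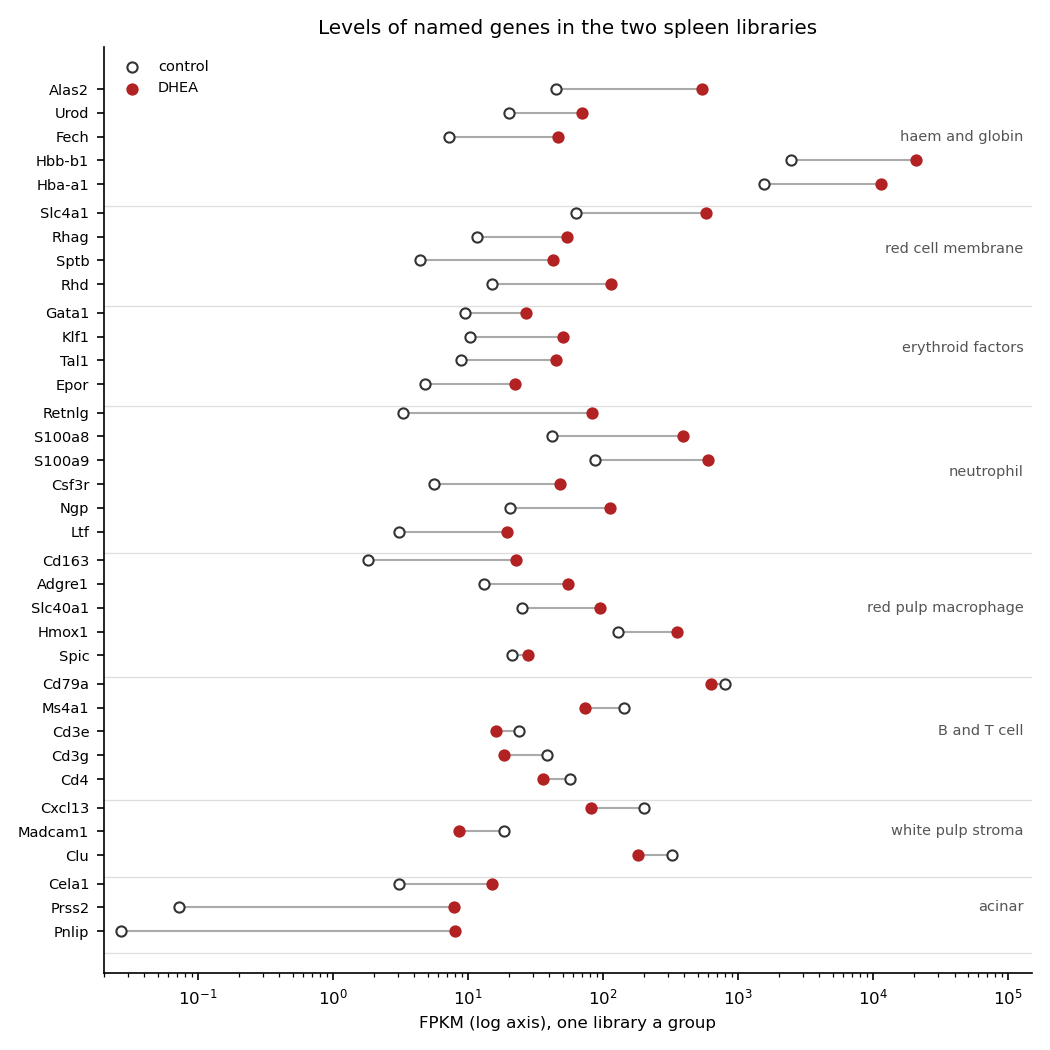
FPKM (x axis, log) of named genes in the control library (open circles) and the DHEA library (red circles), grouped by cell type. The red circles stand to the right for erythroid, neutrophil and macrophage genes, from Alas2 (44.7 and 539) to Cd163 (1.80 and 22.7), and to the left for B cell, T cell and white pulp stroma genes such as Cxcl13 (200 and 81.5).

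White pulp genes lay below level by less than 2-fold in most cases. All 24 B cell genes were under 0, with a median log2 ratio of -0.35. Tnfrsf13c, the BAFF receptor, was the 1 past 2-fold, at 121 FPKM in control against 57.6 in DHEA. Ms4a1 (CD20) was at 142 and 73.7, Ebf1 at 19.0 and 10.3, Pax5 at 78.4 and 50.4 and Cd79b at 611 and 411, while Cr2 (46.9 and 41.2) was nearer to level. All 27 T cell genes were under 0, with a median of -0.62. Cd3g, a chain of the T cell receptor complex, was the 1 past 2-fold, at 38.1 and 18.3; Cd3d was at 61.4 and 30.5, Cd3e at 23.6 and 16.0, Cd4 at 57.0 and 35.8 and Cd8a at 39.7 and 32.0. Scaled to the B cell and T cell genes themselves, the medians were 0.03 for B cells and -0.25 for T cells. That scale makes the summed FPKM of these lists equal in both libraries, so their own medians were drawn towards level by construction. In the DHEA library the erythroid lists took 5.62% of reads against 1.33% in the control, and the part of that shift in the lymphocyte values was not tested.

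Stromal and chemokine genes of the white pulp included the larger differences on the lower side. Cxcl13 was 2.45-fold lower (2.31 to 2.60), at 200 and 81.5 FPKM. Madcam1, the addressin of marginal sinus lining cells, was 2.16-fold lower (1.83 to 2.56). Clu (324 and 182) and Mfge8 (259 and 142), both made by follicular dendritic cells, and Bst1 (14.4 and 7.20) were below level without passing. In all, 2 of 10 were called lower and none higher (median -0.50). That median was -0.13 on the B cell and T cell scale and 0.31, on the higher side, over the 5 of the 10 that have a value in the authors' deposited table. Scaled to the B cell and T cell genes, Cxcl13, Madcam1, Dcn, Cd3g and Tnfrsf13c were no longer past 2-fold. Cd3g and Tnfrsf13c are members of the lists that set this scale.

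Subsets of lymphocytes did not move alike. Genes of regulatory and effector T cells had a median of -0.60 over 9, with Tnfrsf4 at 13.7 FPKM in control against 6.49 in DHEA. Foxp3, under the filter, was at 3.31 and 1.78. Cytotoxic genes were mixed: Gzma was at 20.9 and 53.3 and Ncr1, the NK cell receptor NKp46, at 3.93 and 10.6, while Klrd1 was at 29.1 and 18.6 and Ccl5 at 70.4 and 58.3. Marginal zone B cell genes had a median of 0.17 over 13, with Cd1d1 at 20.0 and 26.4 and S1pr3 at 27.7 and 18.0. Dendritic cell genes (median -0.18 over 19) and class II antigen presentation genes (median -0.24 over 11) stood near the lymphocyte lists, with H2-Aa at 746 and 587, and both medians turned positive on the B cell and T cell scale (0.19 and 0.14). The germinal centre list had a median of 0.10 over 7 genes, where Mki67 was the 1 past 2-fold, and the germinal centre median was -0.24 over all 15 detected genes with no filter. The B cell progenitor list had a median of -0.37 over 7, -0.12 over 12 with no filter, and 1.06 over the 3 that have a value in the authors' deposited table.

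Immunoglobulin constant chains divided by class. Ighm and Ighd, of naive B cells, were at 4285 and 3381 and at 575 and 451 FPKM, and Igkc was at 7796 and 6482. The switched classes were higher: Ighg2c was at 101 and 238, Igha at 428 and 796, Ighg2b at 64.4 and 110 and Ighg3 at 37.9 and 64.7, of which Ighg2c passed 2-fold. On the B cell and T cell scale Igha, Ighg2b and Ighg3 passed as well. The other gene of the 21 in the plasma cell and immunoglobulin list that passed was Slpi, a protease inhibitor that also stands in the mature neutrophil list, at 24.5 and 107. Plasma cell factors lay within 2-fold, with Xbp1 at 66.7 and 70.5, Sdc1 at 7.35 and 6.96 and Jchain at 579 and 462.

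Variable segments differed widely between the libraries in both directions. This set was chosen after its values were seen. Of 125 immunoglobulin V segments above the filter, 19 were higher (15.2%) and 12 lower (9.60%), with a median of 0.18 and an SD of 1.02 on the log2 scale. Igkv5-39 was at 3782 FPKM in control, the highest V segment there, and at 268 in DHEA, 14.1-fold lower (13.4 to 14.9). In DHEA the highest was Igkv1-110, at 355 and 1677, and Igkv3-2 was at 74.3 and 761. The sum over all 173 V segments was 13966 FPKM in control against 13817 in DHEA, and 5 of the 10 highest segments were the same in both. T cell receptor alpha and beta V and J segments were narrower in spread (SD 0.71 over 30) around a median of -0.62. Reads from related V segments can be shared in counting, so single segments are uncertain. Without any receptor segments, 429 genes were higher and 55 lower of 7706.

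**Figure D4:**
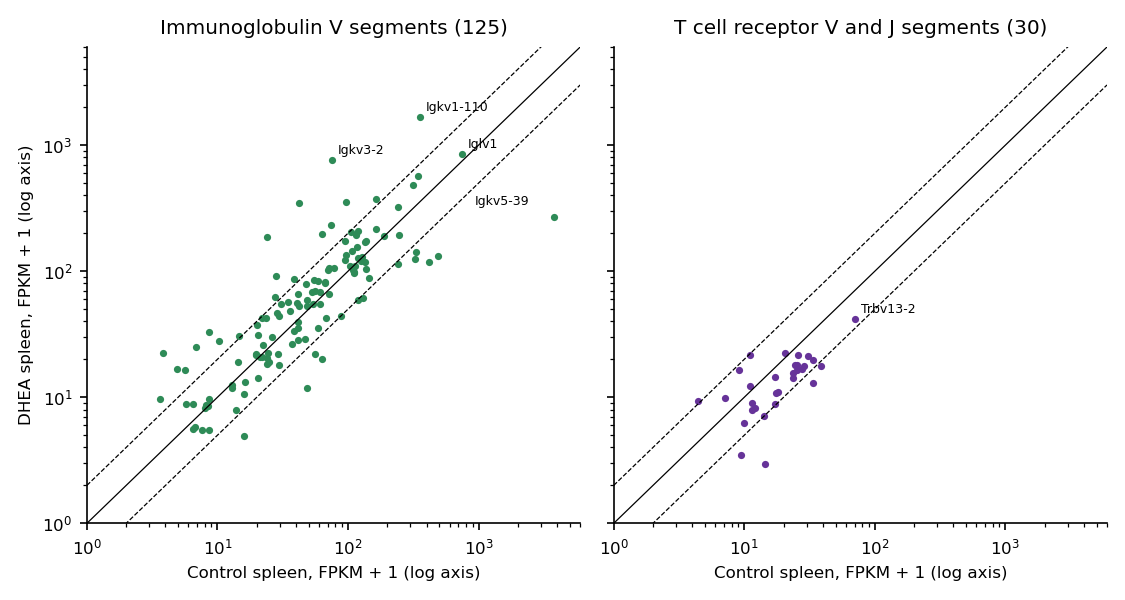
Control FPKM + 1 (x axis, log) against DHEA FPKM + 1 (y axis, log) of the 125 immunoglobulin V segments (left) and the 30 T cell receptor V and J segments (right) above the filter; the solid line marks equal levels and the dashed lines 2-fold. Igkv5-39 stands far below the line (3782 and 268) and Igkv3-2 and Igkv1-110 above it.

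Transcripts encoded in the mitochondrial genome were the largest coherent set on the lower side: all 12 above the filter were called lower, at a median of -1.69. COX1 (cytochrome oxidase subunit 1) was at 9581 FPKM in control against 3389 in DHEA, ND1 at 2861 and 831 and CYTB at 2645 and 737. Together they took 2.44% of reads in the control and 0.828% in DHEA. Nuclear genes for the same respiratory complexes had a median of -0.04 over 34 (0.33 on the B cell and T cell scale) with none past 2-fold; Atp5a1 was at 199 and 204 and Sdha at 62.6 and 61.2. Tfam, which packages and transcribes the mitochondrial genome, was at 17.9 and 13.3, within a maintenance list whose median was -0.20 over 15 (0.13 on the B cell and T cell scale). When the libraries were scaled without these genes and the 50 most abundant genes, every ratio moved up by 0.005. The split was then 457 higher and 74 lower. The part of the mitochondrially encoded genes alone in the other results was not tested. All 40 ribosomal protein genes were under 0 (median -0.39), with none past 2-fold and a median of -0.01 on the B cell and T cell scale.

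Hormone and stress responses were small beside the blood cell genes. Esr1, an oestrogen receptor, was under the filter, at 0.400 FPKM in control against 0.437 in DHEA. None of 9 steroid receptor and DHEA metabolism genes above the filter passed 2-fold (median -0.06, and 0.31 on the B cell and T cell scale). Among glucocorticoid targets, Dusp1 (5.93 and 16.6) was the 1 of 10 called higher, with Tsc22d3 at 37.9 and 47.1 and Fkbp5 at 9.92 and 8.08. Of these 10, 8 lay above 0 and 2 below (median 0.53, and 0.88 on the B cell and T cell scale). Of 20 interferon-stimulated genes, Rsad2 (17.2 and 92.9) and Isg15 (56.9 and 128) were higher, while Ifit3 was at 23.3 in both. Chaperone and unfolded protein genes were under 0 in 15 of 18 cases (median -0.21, and 0.16 on the B cell and T cell scale), with Hsp90aa1 at 54.1 and 26.6 and Hspa8 at 348 and 236. Asns, the asparagine synthetase, was the 1 of those 18 called higher, at 4.02 and 14.2. Immediate early genes had a median of -0.23 over 14, and 0.14 on the B cell and T cell scale, with Egr1 at 16.1 and 9.95. Dusp1, which stands in that list too, was the 1 of the 14 called higher.

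Pancreatic acinar genes appeared in the DHEA library. Ctrb1, a chymotrypsinogen, had 0 reads in control and 262 in DHEA (18.0 FPKM), at least 89.6-fold higher against a floor of 3 reads in the control library. Try4, a trypsinogen, had 0 and 137 reads, at least 46.8-fold higher, and Cela2a, an elastase, 0 and 193. Pnlip (pancreatic lipase) had 1 and 291 reads and Prss2 had 1 and 106. Cela1 was at 3.08 FPKM in control against 15 in DHEA. Reads were present for 16 of 37 acinar genes in control and 34 of 37 in DHEA, and without Klk1 their summed level was 7.40 FPKM in control against 117 in DHEA. Klk1, a kallikrein that other cells also make, was lower, at 17.7 and 8.23. Prss1, Amy2a5 and Ptf1a had 0 reads in both. Trypsinogen genes are near copies of each other, so their single values are uncertain.

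Islet genes were at or near 0 in both libraries. The list of pancreatic duct and gut epithelium genes was near level, at a sum of 9.13 FPKM in control against 8.34 in DHEA. Ins1 had 0 reads in both, Ins2 had 2 reads in each and Gcg 7 and 4, and no islet or duct gene reached the filter. Of the adipocyte and mesothelium lists, 1 gene each passed it: Scd1 was at 190 and 127 and Igfbp5 at 30.2 and 16.5. Liver and kidney transcripts were also more frequent in the DHEA spleen: Alb (albumin) had 1 read in control and 343 in DHEA (8.83 FPKM), Apoa1 0 and 38, and Kap, a kidney androgen-regulated transcript, 2 and 40. In the DHEA liver Alb was at 29426 FPKM, and in the DHEA kidney Kap was at 24559. The DHEA intestine held Ctrb1 at 109 FPKM and Try4 at 69.0, against 1.14 and 1.42 in the control intestine. Of 24 acinar genes above the filter there, 18 were higher and 4 lower (680 and 209 of all 6189 genes). The sum over the whole list without Klk1 went the other way, at 19756 FPKM in control and 5501 in DHEA. Pnlip (0.304 and 42.0), Cpa1 (0.802 and 32.0) and Cpb1 (0.305 and 19.4) were higher there, as were Ctrb1 and Try4. These enzymes added little to the control sum, which lay mostly in other genes of the list. Acinar genes with reads numbered 16 in control and 30 in DHEA in kidney, 17 and 22 in liver, and 15 and 13 in uterus. Summed without Klk1, the acinar genes made up 2931 reads of the DHEA spleen. Carry-over of pancreas at dissection, or of reads between libraries, was not tested.

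Outside every list, 308 genes were higher, 4.22% of the 7307 tested there, and 55 lower. The following were chosen after their values were seen. Tmcc2 was at 9.08 FPKM in control against 82.7 in DHEA, 9.11-fold (8.50 to 9.78), and Slfn14 at 2.84 and 24.5. Pklr, whose gene makes the red cell pyruvate kinase, was at 1.02 and 9.0, and Dyrk3 at 1.20 and 9.33. Ctse (cathepsin E) was at 29.3 and 168 and Tspo2, an erythroid membrane protein, at 3.70 and 19.3. Myeloid receptors were among them too: Fpr1, which senses formylated bacterial peptides, was at 1.73 and 15.2, and the Fc receptor genes Fcgr4 (4.77 and 29.0) and Fcgr1 (2.34 and 11.9) were higher. On the lower side stood Ly6k (11.2 and 1.24), Cpxm1 (58.7 and 18.5), the alarmin Il33 (13.8 and 4.57), the nucleolar gene Npm1 (186 and 85.1) and the chaperone partner Dnaja1 (26 and 10.3).

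The other tissue pairs, also 1 library a group, were read beside the spleen. Haem synthesis genes had medians between -0.25 (uterus) and 0.14 (liver) in the other 9 pairs, against 1.75 in spleen (the labels spell uterus Utery). Alas2 was at 6.94 and 16.3 FPKM in liver and at 13.1 and 18.8 in lung, and Hbb-b1 at 27.9 and 133 in liver and at 878 and 842 in lung. Mature neutrophil genes were higher in lung as well, with a median of 2.0: S100a8 was at 22.0 and 149 there and Retnlg at 9.67 and 41.5. In uterus Retnlg was at 0.315 and 76.6 while S100a8 was at 4.04 and 1.90. The red pulp macrophage list had a median of 1.61 in uterus and between -0.50 and 0.39 in the other 8. Mitochondrially encoded genes were also lower in uterus (-2.16), lung (-1.24), heart (-0.77) and liver (-0.60).

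**Figure D5:**
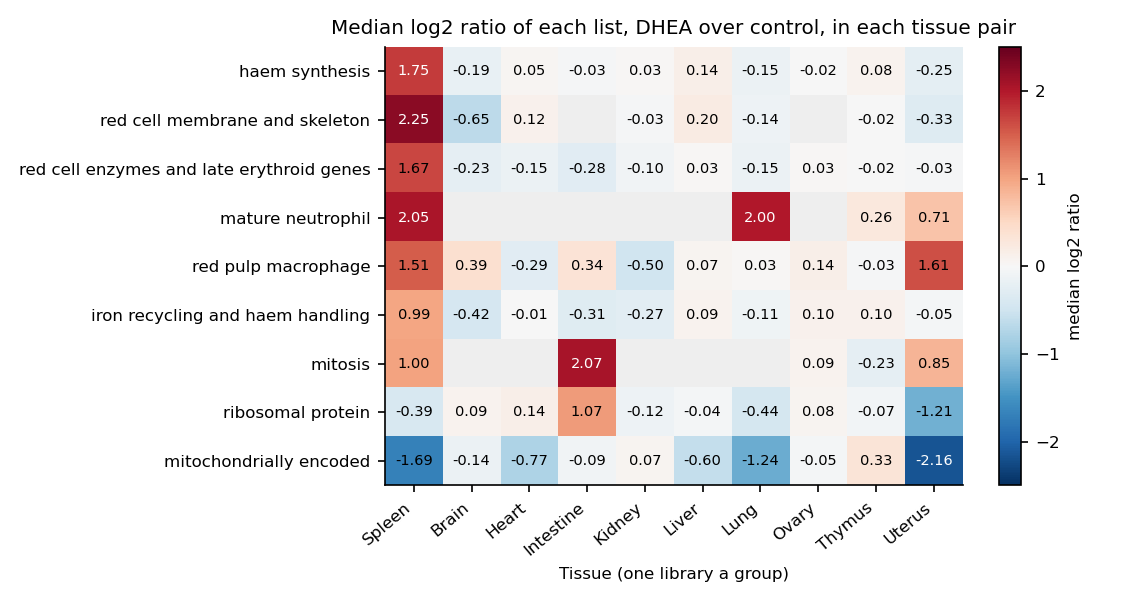
Median log2 ratio (colour and number, DHEA over control) of 9 lists (rows) in each tissue pair (columns), 1 library a group; grey marks fewer than 5 members above the filter. The 3 erythroid rows lie between 1.67 and 2.25 in spleen and between -0.65 and 0.20 in the other pairs shown, the mature neutrophil row is highest in spleen (2.05) and lung (2.0), and the mitochondrially encoded row is lowest in uterus (-2.16) and spleen (-1.69).

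Some calls were shared with another tissue. Of the 452 spleen genes, 257 were above the filter in lung, and 19 of those were higher there too (7.39%), against 0.739% of the 6228 genes above the filter in both. These 19 were 30.2% of the 63 genes higher in lung, and included S100a8, S100a9, Retnlg, Csf3r, Cxcr2, Mmp9, Fpr1 and Il1b. In uterus the share was 52 of 251 (20.7%), against 5.07%, or 8.32% of the 625 genes higher there. In thymus it was 18 of 214 (8.41%), against 0.895%, or 19.8% of the 91 genes higher there, and in liver 13 of 156 (8.33%), against 0.974%, or 16.3% of 80. In intestine it was 27 of 168 (16.1%), against 13%, or 3.97% of 680. In brain it was 12 of 174 (6.90%), against 1.62%. In kidney it was 2 of 213 (0.939%), against 0.266%. In ovary it was 15 of 252 (5.95%), against 0.839%, and in heart 6 of 192 (3.125%), against 0.245%. Of the 74 lower genes, 31 were above the filter in uterus and 21 of them were lower there too (67.7%), against 7.68%, and 12 of the 21 were mitochondrially encoded. In lung 12 of 35 were lower too (34.3%), against 0.562%, 9 of them mitochondrially encoded, and in heart 7 of 22 (31.8%), against 0.379%, 5 of them mitochondrially encoded. Fewer were shared elsewhere: 4 of 21 in liver (19.0%, against 1.40%), 2 of 23 in brain (8.70%, against 3.05%) and 3 of 46 in intestine (6.52%, against 1.32%). In thymus it was 2 of 50 (4%, against 0.0895%), in ovary 0 of 32 (against 1.73%) and in kidney 0 of 22 (against 0.152%).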

How the data were processed

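The authors deposited 1 table of FPKM values per gene and library and 1 table of log2 fold values per tissue. Per the submitters' processing notes, HISAT2 2.0.5 was used and the builds hg38 and mm39 are named; the counting tool, annotation and strand setting were not given in the sources used here. From the deposited FPKM, each gene's whole reads and length were recovered from the size of 1 read's step (100% of 24826 genes), and spleen columns were matched to labels by their names. Ratios used a pseudocount of 1 FPKM and a pair mean of 5 FPKM or more; folds carry exact Clopper-Pearson intervals at 95%, with a floor of 3 reads. With 1 library a group no test was run. In the spleen column, the deposited log2 fold values equal the log2 FPKM ratio shifted by -0.005 in 11315 matched genes.

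The members and the 47 gene lists (954 genes, 918 in the table) were chosen with earlier results of these data known. Genes named in the text were drawn from the 5 markers, the 25 largest ratios on each side and, within lists, the members with the largest ratios or levels or a stated role, and not every gene of these is named; others are said to have been chosen after their values were seen. Read recovery and calling were tested on simulated data. Promoter windows are from RefSeq (GRCm38.p6); 4 of the 5 marker genes had one. Python 3.11.15, pandas 2.3.3 and scipy 1.17.1 were used. Alternatives covered the pseudocount, filter, scaling and the deposited fold values, plus a counting-interval call and a count without receptor segments added after the data were seen. Some genes of the lists are not reported here.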

Additional observations from a re-analysis of the deposited data

How the results depend on the processing

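With 1 library a group no replicate can be left out. No paired analysis was possible because the spleen groups hold 1 library each. Against 452 genes higher and 74 lower, a pair mean of 1 FPKM gave 718 and 140, no filter gave 787 and 161, a control of 5 FPKM or more gave 288 higher, and scaling to the B cell and T cell lists gave 809 and 30. Requiring the whole counting interval past 2-fold left 46 lower and 396 higher. The other alternatives gave between 429 and 521 higher, or 362 of 7124 genes with the deposited fold values, and between 52 and 95 lower. Each list median was set against a span made from the median lower and median upper counting limits of its members. That span is not an interval for the median itself. Of 320 recomputed list medians, 231 stayed within the span, 88 moved beyond it and 1 changed sign from past 2-fold. In that case the mast cell, basophil and eosinophil median, 1.20 over 5 genes, was -0.25 over the 4 with a control of 5 FPKM or more. With that one, 22 of the 320, from 18 of 40 lists, had the opposite sign to the one reported: 9 on the B cell and T cell scale, 7 with the deposited fold values, 4 with a control of 5 FPKM or more and 2 with a lower filter or none. Besides those given with their lists above, these were the plasma cell and immunoglobulin list (-0.07, and 0.27 on the B cell and T cell scale), the monocyte list (0.04, and -0.08 over the 11 genes with a deposited fold value), the interferon-stimulated list (0.04, and -0.03 with a control of 5 FPKM or more) and the NK and cytotoxic list (0.11, and -0.19 with a control of 5 FPKM or more).

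For 938 genes, all called genes and all list members above the filter, single ratios were recomputed under 5 alternatives, 4410 ratios in all. Of these, 4266 kept their side of 2-fold, 56 were no longer past it, 88 were newly past it, and no called gene changed sign. The B cell and T cell scale made 43 of the 56 and 52 of the 88. On that scale Gpx1, C1qa, Tfrc, Cd93, Bnip3l, Bsg, Tmem14c and Xk passed 2-fold on the higher side, and Npm1, Dnaja1, Prg3 and Klk1 no longer passed on the lower. With a pseudocount of 0.1 FPKM, Tfrc and Cd93 passed as higher and Cd3d, Hsp90aa1 and Tnfrsf4 as lower.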

Other observations

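Promoter letters of the called genes were compared as a description. AGATAA stood in 14.1% of the 419 windows of genes called higher, in 6.22% of the 7771 windows of genes above the filter and in 6.25% of the 32 windows of genes called lower. For TGATAA the shares were 7.40%, 4.49% and 12.5%, and for either of these 2 they were 19.3%, 10.2% and 18.8%, the last being 6 of 32. For GAGGAA the shares were 25.5%, 28.1% and 31.3%. The median length that gave the FPKM was 3328 bases for the genes called higher and 3975 for all genes counted. Outside the erythroid, neutrophil, macrophage, iron and cell cycle lists, 329 of 7671 genes were higher and all 74 lower genes remained.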
